A study of Mus musculus with 4 samples.

Results

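Library 5 was the amplicon library read across the 5′ junction between a targeted mouse gene and a donor DNA inserted into it, in DNA from 1 retina. It was chosen by its tissue label, retina, and its library title, AA_5, and it was 1 of 4 samples in the series. The study put a donor DNA into a gene of mouse retina or liver with the nuclease SpCas9, amplified both edges of the insertion by PCR, and sequenced the products. The remaining samples were library 6 of the retina, which covered the 3′ edge, and libraries 1 and 2 of 1 liver, which covered the 5′ and 3′ edges in the albumin gene (Alb). Each tissue had 1 animal's DNA and each junction 1 library, so there were no replicates.

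The retina came from a C57BL/6J mouse that received AAV8 vectors, made from adeno-associated virus, under the retina at 4 weeks of age. The dose was 2.5e9 genome copies of each vector per eye in 0.7 to 1 µL, and tissue was taken 30 days later. One vector carried SpCas9 under the IRBP promoter, which is active in photoreceptors. Its partner carried the donor DNA and the guide RNA under the U6 promoter. DNA was taken from the temporal retina without sorting, so other cell types were present, and only DNA that held the donor at the locus could give a product across the junction. The series' design text states that control retinas gave no PCR product. The series as used here holds no control library, so the background was read from positions of library 5 away from the cleavage site. The liver of the comparison libraries came from a C57BL/6J mouse that received AAV8 vectors as a newborn, and tissue was taken 30 days later.

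Homology-independent targeted integration, HITI, relies on non-homologous end joining, the repair route that ligates broken DNA ends without a template and that works in cells that no longer divide. The nuclease cuts the gene and also the donor, which is flanked by the same target site in inverted orientation, and the ends are joined. The joining can gain or lose bases, called INDELs (insertions and deletions). The donor carried STOP codons in every reading frame ahead of a new translation start.

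The most frequent base at each of the 195 positions of library 5 named the junction. The first 99 positions matched the mouse genome (GRCm39) without a mismatch, at 1 place only among the 61 sequences of the assembly on either strand. From there the sequence no longer followed the genome, so the library read from the targeted gene into the start of the donor, which made it the 5′ junction.

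SpCas9 cuts 3 nt before the PAM, the motif it needs beside its target, and this put the cleavage site where the match to the genome ended. The first 17 nt of the donor side were the reverse complement of the 17 nt on the gene side, as the inverted site gives. A junction without INDEL was thus a perfect inverted repeat over 17 nt on each side. These 34 nt were the window in which INDELs were counted. Its positions are numbered from 1 to 34, with the gene side at 1 to 17, the donor side at 18 to 34 and the cleavage site between 17 and 18.

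The depth, the number of reads that cover a position with a base, a gap or an uncalled base (N), was 3079384 at window position 17. It ranged only from 3055502 to 3079875 along the 195 positions, a span of 0.791% of the highest. INDEL shares are percentages of this depth at position 17, and rates by position are percentages of the depth at the position itself, or of its called bases where so named. Values in parentheses after a share are its 95% Wilson interval. At this depth a count of 0 allows a share of up to 0.0000974%.

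In library 5, INDELs at 0.1% or more of the depth in the window summed to 18.3% of the depth (18.2 to 18.3), or 562641 reads if no read carried more than 1 of them. The lists count each INDEL on its own, so reads with several were not told apart, and sums of INDEL reads below are sums over INDELs. Deletions made up 13.7% of the depth (13.6 to 13.7) and insertions 4.60% (4.58 to 4.63), so there were 2.97 deletion reads for each insertion read. The rest of the depth, 81.7% (81.7 to 81.8), is the least that had none of these INDELs. Without a minimum the shares were 18.4% for INDELs, 13.8% for deletions and 4.64% for insertions.

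Only 8 different INDELs, each 1 place and 1 length, made up these reads, 5 of them deletions and 3 insertions. A deletion of the first donor nucleotide, window position 18, was the most frequent by 2.52 times, with 173357 reads or 5.63% of the depth (5.60 to 5.66). It alone held 30.8% of all INDEL reads. The other 7 lay within 1.93 times of each other.

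The gene side lost bases in 3 deletions. The deletion of 8 bp, window positions 10 to 17, had 68708 reads, 2.23% of the depth (2.21 to 2.25). The deletion of 5 bp, positions 13 to 17, had 61201 reads, 1.987% of the depth (1.972 to 2.003). The deletion of 1 bp at position 16 had 57601 reads, 1.87% of the depth (1.86 to 1.89). As placed in the files, the 8 bp and 5 bp deletions began at different places inside the gene and both ended at the last nucleotide before the cut. The 8 bp deletion has 1 other placement with the same sequence, so its end rests on the alignment.

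On the donor side, the loss of position 18 was joined by 1 longer deletion. It removed 9 bp, positions 18 to 26, and had 60027 reads, 1.95% of the depth (1.93 to 1.96). By the same placement, deletions on the donor side held 55.4% of the deletion reads (55.3 to 55.6) and those on the gene side 44.6% (44.4 to 44.7). The gene side lost more bases per deletion read, a mean of 4.87 nt against 3.06 nt on the donor side. Summed over reads, 913270 nt were lost from the gene side and 713600 nt from the donor side.

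**Figure D1:**
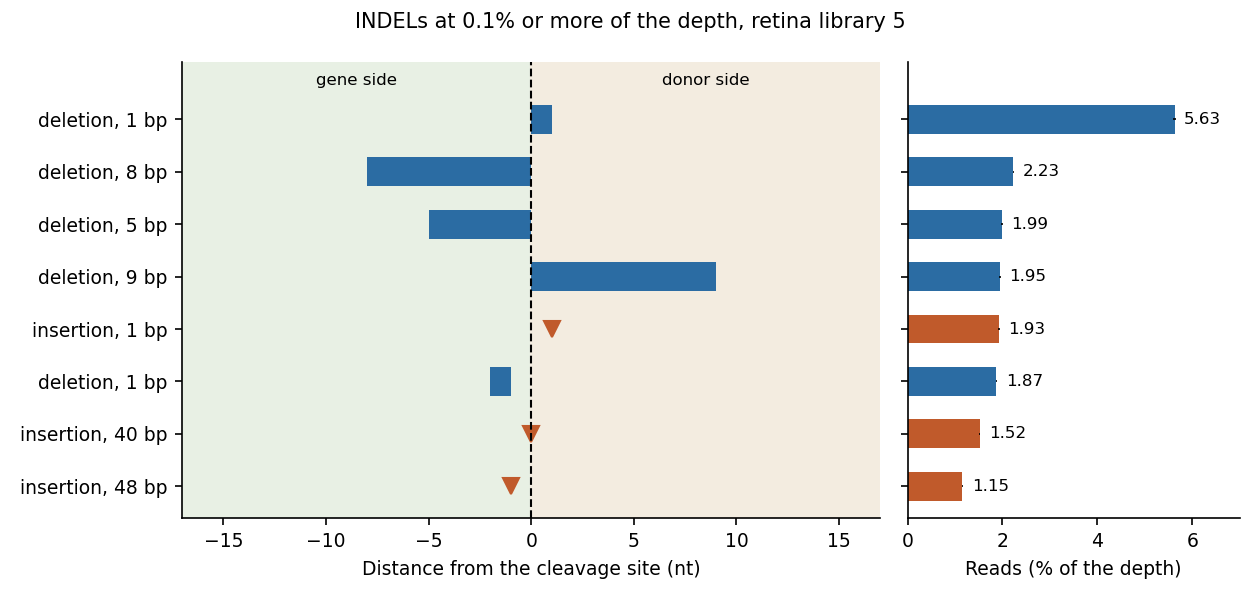
The 8 INDELs of library 5 at 0.1% or more of the depth, in order of reads; left, bars mark the bases removed and triangles the point of insertion by distance from the cleavage site (nt, dashed line at 0). Right, bars give the reads as % of the depth with 95% Wilson intervals, from 1.15% for the 48 bp insertion to 5.63% for the 1 bp deletion on the donor side.

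All 420894 deletion reads past the minimum touched the cleavage site, meaning that the deletion removed or adjoined a nucleotide beside it. By the placement in the files, 86.3% (86.2 to 86.4) removed such a nucleotide. The rest were the 1 bp deletion at position 16, which gives the same sequence as a deletion of position 17. For 4 of the 5 deletions there were 2 placements with the same result, and only the 5 bp deletion had 1. None of the 5, as placed, removed bases from both sides of the cut. Among all 132 deletions listed in the window, 23 did as placed, with 341 reads together, 0.0805% of the deletion reads. The most frequent of the 23 were of 9 bp with 121 reads and of 8 bp with 77 reads, lengths that also passed the minimum. The 81 listed deletions that did not touch the site had 1866 reads, 0.440% of the deletion reads.

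The 3 insertions were listed at 3 neighbouring places. The most frequent, of 1 bp after window position 18, had 59413 reads, 1.93% of the depth (1.91 to 1.94). A 40 bp insertion between positions 17 and 18 had 46813 reads, 1.52% of the depth (1.51 to 1.53), and a 48 bp insertion after position 16 had 35521 reads, 1.15% (1.14 to 1.17). The long insertions made up 58.1% of the insertion reads (57.8 to 58.3) and 2.67% of the depth. Their sequences were not analysed here. INDELs of 1 bp, both kinds together, made up 51.6% of the INDEL reads (51.5 to 51.7) and 9.43% of the depth.

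Reads fell sharply below the INDELs that passed. The least frequent ones past the minimum were the 40 bp and 48 bp insertions, and the most frequent ones below it were 1 bp deletions with 396 reads, 0.0129% of the depth, and 229 reads, 0.00744%. The step from 35521 to 396 reads was 89.7 times, and the minimum of 0.1%, 3079 reads, lay inside it. Below it were 198 further INDELs with 4067 reads in all, 0.132% of the depth and 0.718% of the INDEL reads of the window. Of their reads, 1 bp INDELs held 60.7% among the deletions and 74.9% among the insertions. The longest were a deletion of 26 bp and an insertion of 50 bp. Of the 198, 29 insertions and 61 deletions had 3 reads or fewer. Most reads of the 198 had the length of an INDEL of the same kind past the minimum, listed at another place. This held for 2857 of their 2957 deletion reads and 1035 of their 1110 insertion reads. Whether these were the same INDELs placed differently by the alignment was not tested.

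**Figure D2:**
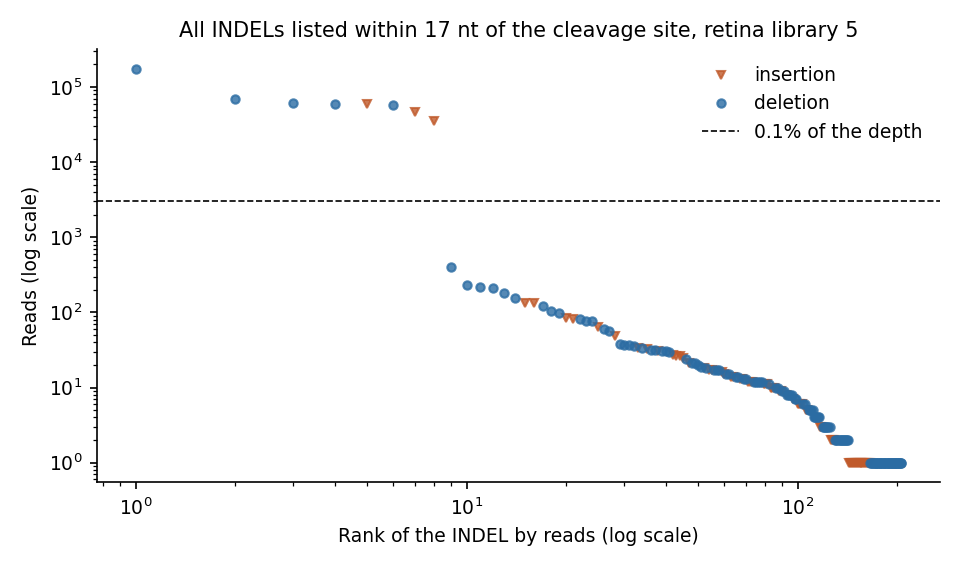
Reads (log scale) of each of the 206 INDELs listed within 17 nt of the cleavage site in library 5, by rank (log scale), with the dashed line at 0.1% of the depth. The 8 INDELs above the line have 35521 or more reads and the next has 396.

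Most INDEL reads had an INDEL whose length alone would shift the reading frame across the junction. Reads with several INDELs were not told apart, so the net frame of a read was not tested. The length was not a multiple of 3 in 74.9% of insertion reads (74.7 to 75.2) and in 85.7% of deletion reads (85.6 to 85.8). Over both kinds this was 83.0% of the INDEL reads (82.9 to 83.1) and 15.2% of the depth. The in-frame INDELs were the 48 bp insertion and the 9 bp deletion on the donor side. Counted once each, 2 of 3 insertions and 4 of 5 deletions were out of frame.

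Across the 34 positions of the window, the share of reads with a gap traced the 5 deletions. It was 7.59% at the first donor nucleotide, 6.11% at position 16 and 4.23% at position 17. On the donor side it stayed between 1.96% and 1.98% over positions 19 to 26. At position 27, the first past the 9 bp deletion, it was 0.00232%. On the gene side it was 2.25% at position 10 and 0.0121% at position 9. Gaps rebuilt from the deletion list and gaps counted per position differed by at most 211 reads, 0.00690% of the depth at that position.

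Bases other than the most frequent one stood out at 2 positions, the last nucleotide of the gene side and the second of the donor side. At window position 19 they made up 2.005% of the called bases (1.989 to 2.021), and the most frequent of them alone had 58911 reads. At position 17 they made up 1.73% (1.72 to 1.75), with 49267 reads of the most frequent of them. At every other position of the window they were 0.0613% or less, with a median over the window of 0.0345%, and the highest value outside the window was 0.145%. The files count each position on its own, so whether the reads with these bases also carried an INDEL was not tested.

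**Figure D3:**
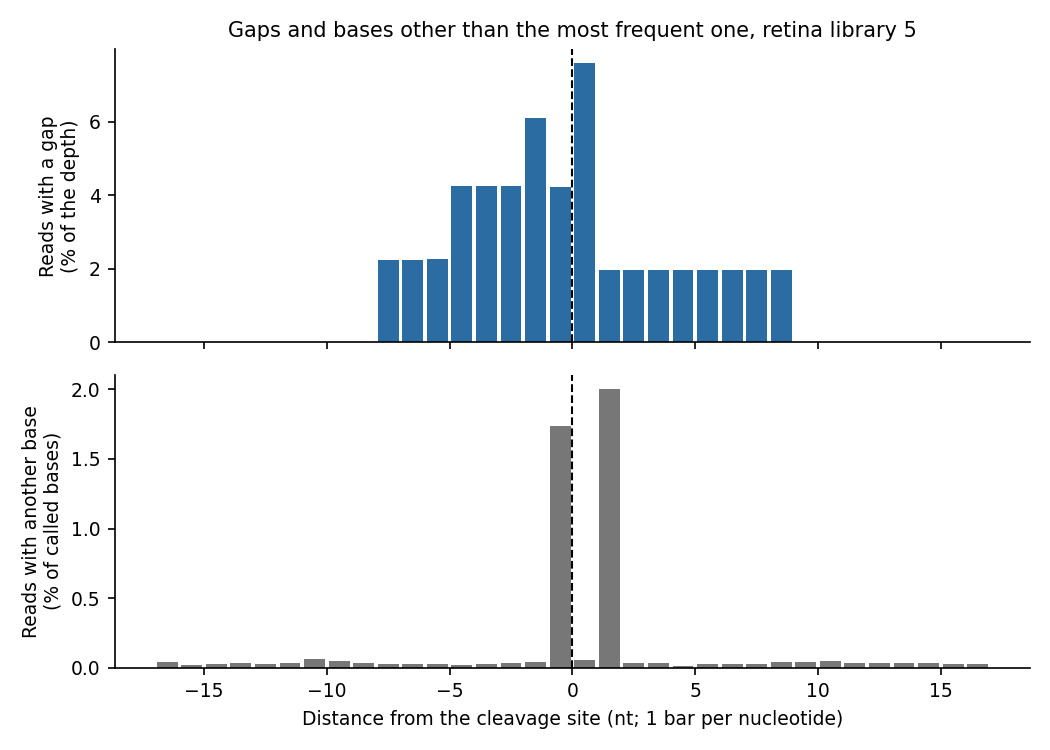
Reads with a gap (top, % of the depth) and reads with a base other than the most frequent one (bottom, % of the called bases) at each of the 34 nucleotides around the cleavage site (distance in nt, dashed line at 0) in library 5. Gaps are highest at the first donor nucleotide, 7.59%, and other bases stand out only at the last gene nucleotide, 1.73%, and the second after it, 2.005%.

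The 161 positions outside the window gave the background. Their median, over the depth at each position, was 0.000554% for deletions and 0.000228% for insertions per position. The highest rates, 0.1542% for deletions (0.1499 to 0.1587) and 0.0388% for insertions (0.0367 to 0.0411), were both listed just before a run of 7 T in the donor, 70 to 76 nt after the site. This was the only position outside the window that reached 0.1%. The next highest deletion rates outside, 0.0228% and 0.0208%, were 69 nt or more before the site on the gene side. Within the window, the highest deletion rate was 7.59% and the highest insertion rate 1.93%, or 49.2 and 49.7 times the highest outside. At 4 positions of the window the deletion rate was 0.1% or more, and at 3 the insertion rate was.

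**Figure D4:**
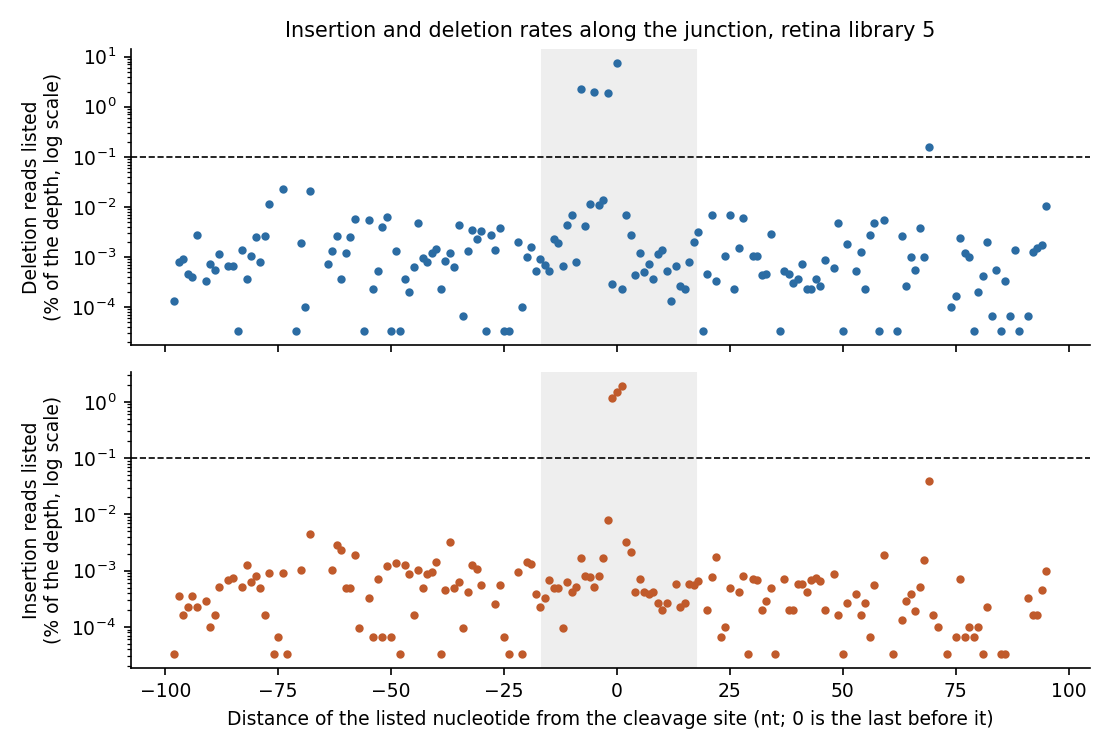
Deletion reads (top) and insertion reads (bottom) listed at each position of library 5, as % of the depth on a log scale, by distance from the cleavage site (nt); positions with 0 reads are not drawn, the dashed line is 0.1% and the grey band is the window. Outside the band only 1 deletion value, 0.154%, is above the line.

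Beside the other libraries, the place of library 5 depended on the minimum. With 0.1% in all 4, its INDEL share of 18.3% was the lowest, as the share was 73.8% in library 6, the 3′ edge of the same cut, 26.6% in liver library 1 and 42.5% in liver library 2. With 0.5%, the minimum the study used for the liver, liver library 1 was lower, at 15.8% (15.6 to 16.0), while library 5 kept 18.3%. Liver library 2 had 30.1% at this minimum, which was chosen here after seeing the data. The shares of liver library 1, and so its place beside library 5, rest on a deletion list divided by 2. Shares from the undivided list were not computed. The order of the kinds also differed within the retina, since library 6 had more insertions (68.7%) than deletions (5.12%). A 1 bp insertion was listed in 62.7% of its depth. Both liver libraries had more deletions than insertions at 0.1%, as library 5 did. Deletions and insertions were 22.1% and 4.51% in liver library 1, and 24.5% and 18.0% in liver library 2. In the liver, 65 and 66 different INDELs passed 0.1% and 17 and 15 passed 0.5%, against 8 and 8 in library 5 and 7 and 4 in library 6. Without a minimum the counts, of places and lengths as listed, were 359 and 768 in the liver, 206 in library 5 and 164 in library 6. The INDEL share of library 5 was then again the lowest, at 18.4%. It was 31.2% in liver library 1, 49.8% in liver library 2 and 74.2% in library 6. The minimum of 0.1% stood for about 3079 reads in library 5 and 119 to 1407 reads in the others, so depth differed with the library. The liver mouse was injected as a newborn through the temporal vein, with SpCas9 under a liver promoter, so locus, tissue, age, route, dose, promoter and depth could not be told apart. Each value is from 1 library, so no difference between libraries was tested.

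**Figure D5:**
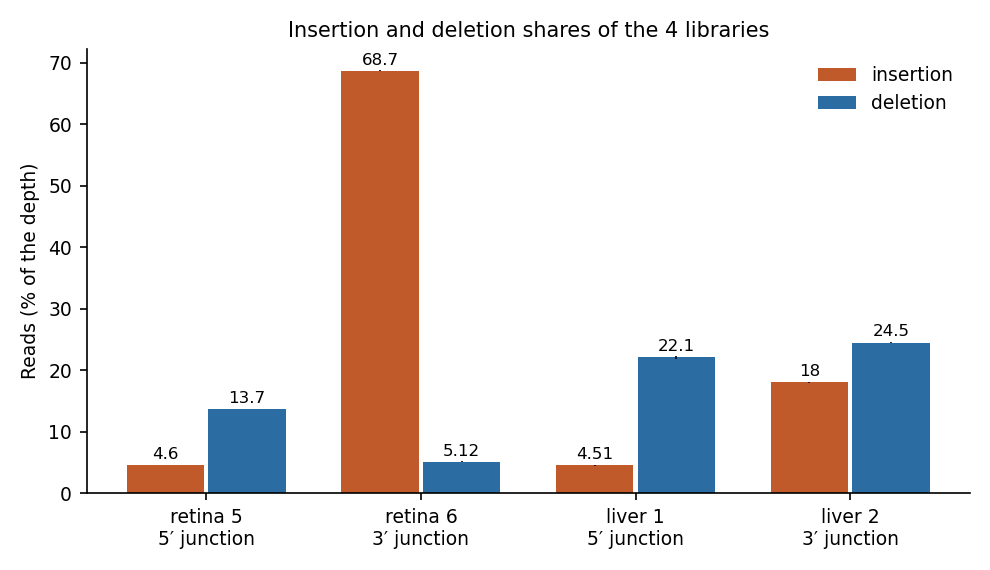
Insertion and deletion reads within 17 nt of the cleavage site at 0.1% or more, as % of the depth (bars, with 95% Wilson intervals), in the 4 libraries. Library 5 has 4.60% insertions and 13.7% deletions, and library 6 has 68.7% and 5.12%. Liver library 1 has 4.51% and 22.1%, and liver library 2 has 18.0% and 24.5%.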

How the data were processed

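The values are read counts per position and lists of INDELs by position and length, deposited by the authors, who trimmed reads from 600 to 350 bp (Cutadapt 1.9), aligned them to the sequence of the planned insertion (BWA-SW 0.7.10), counted bases and INDELs per position with deepSNV 1.30.0, and read INDEL lengths from the alignments with their own code, after base calls were converted with bcl2fastq v2.20.0.422. No normalization was applied. Over the positions that the lists cover, 28 nt before to 26 nt after the cut, the deletion list of library 5 summed to 424809 reads against 424700 in the per-position deletion counts and the insertion list to 143143 against 143133, so neither was divided. The liver library 1 deletion list was 2 times its per-position counts and was divided by 2. The most frequent base per position was searched in GRCm39, with gene bounds from GENCODE M39; the build behind the deposited reference was not given in the sources used here. The name, place and sequence of the gene targeted in the retina are not reported here. An INDEL is listed at the nucleotide before it and was counted where that lay among the 17 nt to either side of the cut, at 0.1% or more of the depth (A, T, C, G, gap and N). The named INDELs are those past the minimum with the most reads, up to 10 insertions and 10 deletions, and the 2 just above and 2 just below 0.1%. The alternatives were other minimums (none, 0.05%, 0.5%, 1%), windows (5 and 10 nt), denominators and per-position counts. The members and lists were chosen with earlier results of these data known. Files on read coverage of the inserted sequences were not used here. PCR reads without molecular identifiers are not independent molecules, so intervals and limits cover counting error only. Python 3.11.15, NumPy 2.4.6, SciPy 1.17.1 and matplotlib 3.10.9 were used.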

Additional observations from a re-analysis of the deposited data

Results flagged for a closer look

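The counts of read starts and read ends were used in no comparison, uncalled bases entered only as part of the depth, and each rose above the limit that a count of 0 allows. In library 5, alignments ended most often at the first nucleotide after the cleavage site, with 21783 read ends or 0.707% of the depth there (0.698 to 0.717), 180 times the median position. The depth fell by 21082 reads, 0.685%, between this nucleotide and the next. The next highest count of read ends, 4598, was at the last nucleotide before the site.

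Among the 195 positions, alignments began most often 65 nt after the site, inside the donor. This place had 14224 read starts or 0.463% of the depth (0.456 to 0.471), 135 times the median position. The first nucleotide after the site came next, with 2684. The share of uncalled bases was highest 98 nt before the site, at 3.08% of the depth (3.06 to 3.10), against a median of 1.45% in the window. The causes were not tested.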

How the results depend on the processing

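Of 52 alternatives to 12 results, 30 stayed within the main value's 95% interval or, for the number of INDELs, within 1.5 times, and 22 moved; 5 were chosen after seeing the data. The intervals are narrow at this depth, so small shifts count as moved. Shares are in the order INDEL, insertion, deletion. Without a minimum they were 18.4%, 4.64% and 13.8%. Over the depth without N they were 18.5%, 4.65% and 13.8%. From per-position counts they were 18.4%, 4.64% and 13.8% in the window, and 18.9%, 4.75% and 14.2% over the whole region. A window of 5 nt gave an INDEL share of 14.1% and a deletion share of 9.45%, because the 5 bp and 8 bp deletions are listed outside it; counted by removed bases (chosen after seeing the data) both returned to the main values, as did the other windows and minimums. With each INDEL counted once, 66.7% of insertions and 80% of deletions were out of frame. By a stricter definition chosen after seeing the data, 86.3% of deletion reads removed a nucleotide beside the site. The median outside the window was 0.000228% for insertions and 0.000554% for deletions, in place of the highest rate. At 0.5%, chosen after seeing the data, the INDEL shares of liver libraries 1 and 2 were 15.8% and 30.1%, and the first fell below library 5. Over A, T, C, G, gap and N the highest substitution rate was 1.94%. The list as deposited where it was divided gave no value for library 5, since its lists were not divided. For liver library 1, whose deletion list was divided by 2, this alternative was not run, so its INDEL shares rest on the division.

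The values come from 1 library of 1 retina, so animal, PCR and sequencing variation are unknown. Junctions that lost a primer site, and alleles without the donor, are not in the library. The list gives lengths and not bases, so INDELs of 1 place and length but different sequence count as 1. The shares are of PCR reads, and how product length bore on them was not tested. The placement of an INDEL in repeated bases follows the authors' alignment.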
